A study of Mus musculus with 18 samples.

Results

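Ppp1r27, Dusp13, and Traf3ip3 are 3 genes selected on their large rises at day 3 after facial nerve transection, out of 35150 genes measured in the mouse whisker pad. The TPM (a level in transcripts, scaled for transcript length and for depth) of the Ensembl transcripts of each gene were summed, and the 28 single transcripts of the 3 genes were also kept. The values of day 3 chose the genes, so for day 3 they are given as a description with no test. The choice by day 3 did not use days 1 and 7 on either side, or how a gene's TPM was divided among its transcripts. Tests were made on these. The genes were picked with earlier results of these data known, so the independence of these tests from the choice is not established. RNA came from biopsies of skin and muscle of the rostral whisker pad of adult mice of both sexes, taken from both sides of 9 mice (18 samples). Groups of 3 mice were sampled at day 1, day 3, or day 7. On the right side 2 branches of the facial nerve, the buccal and the superior marginal, were cut (denervated), and on the left side the skin was opened and closed over an intact nerve (sham). All groups therefore had skin surgery and anesthesia, each control came from an injured mouse, and an effect of the lesion cannot be told apart from a difference between right and left. Strain and genotype of these mice were not given in the sources used here.

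The samples held both tissues that the labels name. The summed TPM of 12 skeletal muscle markers was between 3929 and 24910 in the 9 sham samples and between 6044 and 22870 in the 9 denervated samples. That of 8 keratinocyte markers was between 5065 and 10040 in all 18. The sham sample of mouse 1 of day 1 had the lowest muscle sum, 3929, against 14270 and 20180 in the other sham samples of that day. The step size of low values put the depth at 10600000 to 33000000 reads per sample (tolerance 0.1 reads). In a mixed biopsy, a different number of muscle cells and a different amount of RNA per cell cannot be told apart.

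Ppp1r27 encodes a small ankyrin repeat protein that binds protein phosphatase 1 and inhibits it. It is also known as dysferlin-interacting protein 1 or toonin, after the muscle membrane repair protein dysferlin. Dusp13 encodes atypical dual specificity phosphatases, enzymes that can remove phosphate from tyrosine as well as from serine and threonine. The locus holds separate reading frames, one for a form first described in skeletal muscle (DUSP13A, or MDSP) and one for a form first described in testis (DUSP13B, or TMDP). Traf3ip3, also called T3JAM, encodes a coiled-coil protein that binds the signaling adaptor TRAF3 and is best known from lymphoid tissue. Skeletal muscle that loses its nerve switches on a set of genes that includes myogenin, MyoD, and the fetal subunit of the acetylcholine receptor.

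All 3 genes are on the minus strand of build GRCm38. Ppp1r27 (ENSMUSG00000025129) is at chr11:120549979-120551132 and has 1 transcript of 771 bases in 3 exons, which codes for 154 residues. Dusp13 (ENSMUSG00000021768) is at chr14:21733394-21751181 with 14 transcripts. Traf3ip3 (ENSMUSG00000037318) is at chr1:193175453-193201703 with 13 transcripts. In Dusp13, the coding part of Dusp13-201 ended at base 21746321, upstream of the last 3 exons and covers 188 residues. The coding part of Dusp13-202, Dusp13-203, and Dusp13-204 ended at base 21733652 in the last exon, and Dusp13-204 codes for 198 residues. Dusp13-201 runs on through the same last 3 exons without coding there, so that it shares 852 bases with Dusp13-204, and only 124 bases of Dusp13-204 are in no other transcript of the gene. The reads of the last exons therefore cannot be given to one of these transcripts, and the division among them is Kallisto's estimate.

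**Figure D1:**
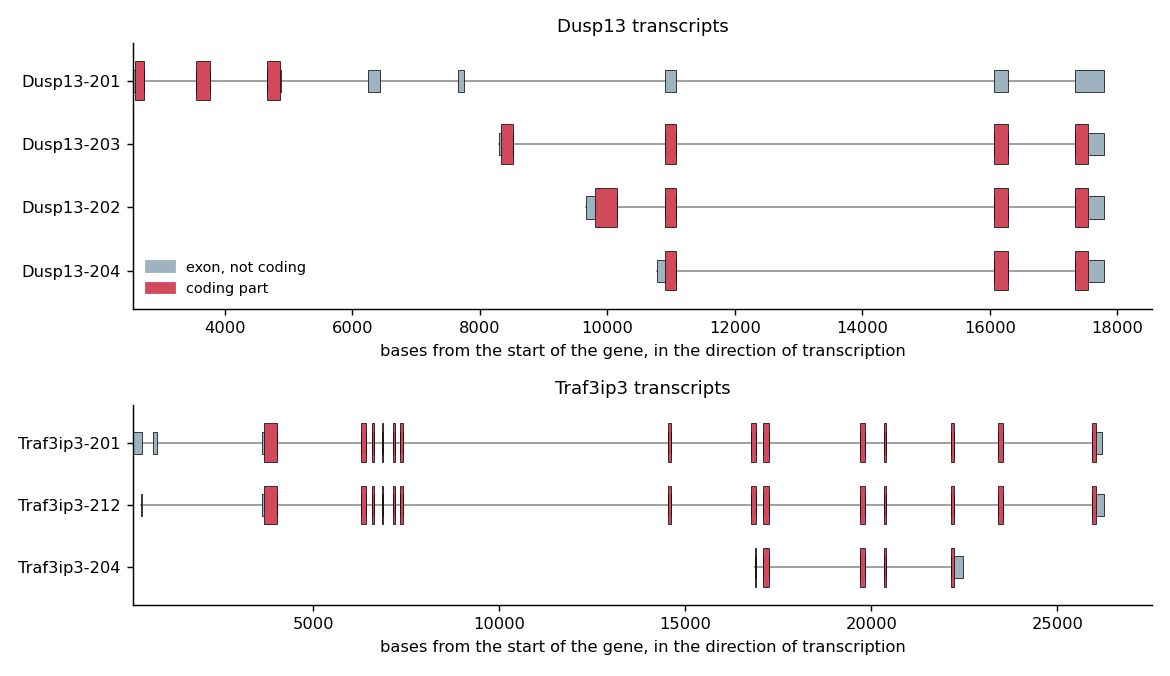
Exons of the main Dusp13 transcripts (top) and Traf3ip3 transcripts (bottom) by distance in bases from the start of the gene, with coding parts tall and red and other exon parts low and gray-blue. Dusp13-201 codes in its first exons alone and Dusp13-204 in the last 3, and Traf3ip3-204 holds 5 exons and ends inside the gene.

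The starts of both Dusp13 reading frames and the codons around the active site are shown because the TPM of Dusp13 is divided between these forms. Capitals in the first pair mark the start codon, at bases 21748594 and 21740276 of chromosome 14.
Dusp13-201 start: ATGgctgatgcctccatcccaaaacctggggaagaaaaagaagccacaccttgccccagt
Dusp13-204 start: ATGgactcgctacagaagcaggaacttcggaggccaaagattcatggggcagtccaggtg
Capitals in the second pair mark the 24 bases of the signature of this enzyme family, codons for histidine and cysteine, then any 5 residues, then arginine, with 15 bases on each side. The signature begins at codon 128 of Dusp13-201 and at codon 137 of Dusp13-204, and 6 of the 24 bases differ.
Dusp13-201 signature: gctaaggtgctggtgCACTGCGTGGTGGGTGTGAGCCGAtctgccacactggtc
Dusp13-204 signature: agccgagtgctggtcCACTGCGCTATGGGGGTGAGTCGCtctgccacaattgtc

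For Traf3ip3, the point where the transcripts part is shown because most of the gene's TPM was assigned to a short annotated transcript. Traf3ip3-201 and Traf3ip3-212 each code for 513 residues and share 1803 bases. Traf3ip3-204 is a 675-base transcript of 5 exons whose coding part begins at its first base, so its 5′ end may be incomplete. It shares 419 bases with each of these full-length transcripts, and only 4 of its bases are in no other transcript of the gene. The division among the transcripts is again Kallisto's estimate. Traf3ip3-204 reads past the end of the 57-base exon at chr1:193179493-193179549 into the intron, where 20 more coding bases precede a stop codon (TAA). Lower case is the end of that exon, and capitals are the bases that follow it in each transcript, taken from GENCODE.
Traf3ip3-204 after the exon: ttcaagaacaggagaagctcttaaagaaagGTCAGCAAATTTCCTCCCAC
Traf3ip3-212 after the exon: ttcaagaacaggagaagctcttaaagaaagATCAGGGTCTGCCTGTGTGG

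The bases before the RefSeq start sites are shown because the 3 genes were picked for rises at the same day. Each line holds the 250 bases before a start, 5′ to 3′ on the strand of the gene (RefSeq, GRCm38.p6), with the matches to the motifs below in capitals.
Ppp1r27, chr11:120551133-120551382: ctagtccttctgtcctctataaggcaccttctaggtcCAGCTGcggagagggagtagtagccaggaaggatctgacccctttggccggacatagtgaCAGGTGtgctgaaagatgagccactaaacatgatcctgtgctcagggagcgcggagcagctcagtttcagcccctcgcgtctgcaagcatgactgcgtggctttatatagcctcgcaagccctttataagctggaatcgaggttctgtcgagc
Dusp13 before the start of Dusp13-201, chr14:21748623-21748872: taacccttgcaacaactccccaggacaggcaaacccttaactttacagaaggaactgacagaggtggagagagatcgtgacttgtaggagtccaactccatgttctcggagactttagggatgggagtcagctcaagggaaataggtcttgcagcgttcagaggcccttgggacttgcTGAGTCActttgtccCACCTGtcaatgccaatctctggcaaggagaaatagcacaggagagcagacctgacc
Dusp13 near the start of Dusp13-204, chr14:21740443-21740692: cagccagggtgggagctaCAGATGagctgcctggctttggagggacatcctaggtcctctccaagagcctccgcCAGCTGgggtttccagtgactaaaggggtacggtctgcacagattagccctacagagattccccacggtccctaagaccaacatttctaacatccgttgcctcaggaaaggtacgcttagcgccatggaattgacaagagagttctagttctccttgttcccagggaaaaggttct
Traf3ip3, chr1:193201547-193201796: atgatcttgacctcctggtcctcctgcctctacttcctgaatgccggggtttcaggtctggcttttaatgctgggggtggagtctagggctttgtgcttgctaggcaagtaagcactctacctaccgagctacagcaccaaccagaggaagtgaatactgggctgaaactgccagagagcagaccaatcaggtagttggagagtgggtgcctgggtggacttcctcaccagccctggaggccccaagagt

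Both strands were searched for the E-box CANNTG, which myogenic factors bind, its form CAGCTG (every CAGCTG is also an E-box), the Runx core TGTGGT, the AP-1 site TGANTCA, and the MEF2 site. Ppp1r27 had 2 E-boxes, of which 1 was CAGCTG at 213 to 208 bases before the start. The window of Dusp13-201 had 1 E-box and 1 AP-1 site, and that near Dusp13-204 had 2 E-boxes, of which 1 was CAGCTG. The other windows of Dusp13, at the starts 21742879 and 21741498, had 2 and 4 E-boxes. The Traf3ip3 window had no match, and no window had a Runx or MEF2 match. Among 32851 windows of the same length, 66.2% held an E-box, 13% CAGCTG, 14.05% the Runx core, 6.75% the AP-1 site, and 2.92% the MEF2 site. These are matches of letters and not sites of binding.

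Ppp1r27 was nearly absent from the sham side at day 1 and was higher on the denervated side of all 9 mice. At day 1 its level was 0.212, 0.809, and 2.099 TPM in the sham samples of mice 1, 2, and 3 and 5.45, 34.6, and 18.1 TPM in their denervated samples. The lowest denervated sample was above the highest sham sample. The sham values rest on an estimated 1.99, 6.91, and 18 reads, so that the smallest of them is imprecise from counting alone. The mean was 1.04 ± 0.965 TPM in sham and 19.4 ± 14.6 TPM in denervated samples (SD, n = 3 each). Mouse 1, the lowest of the denervated samples, also had the lowest summed muscle markers of these, 6044 against 12630 and 12040 TPM. Within the mice, the denervated side was higher by 3.06, 4.74, and 2.84 on the log2(TPM + 0.5) scale.

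At day 3, the time that chose the gene, the sham samples had 4.54, 1.47, and 3.88 TPM and the denervated samples 219.5, 118, and 81.6 TPM. This was the largest level of Ppp1r27 at any time, with a denervated mean of 139.5 ± 71.5 TPM (SD, n = 3) and log2 differences of 5.45, 5.91, and 4.23 within the mice. At day 7 the sham samples had 6.58, 9.24, and 1.84 TPM and the denervated samples 21.45, 36.4, and 11.7 TPM. The groups did not overlap at any of the 3 days. Here and for the genes below, this only describes the printed values. The share of all genes whose groups parted in this way is not given. The log2 differences within the mice of day 7 were 1.63, 1.92, and 2.39, below those of each mouse of the 2 earlier times.

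Dusp13 was the most abundant of the 3 genes and was already present on the sham side. At day 1 its sham samples had 13.8, 41.8, and 47.3 TPM and its denervated samples 25.6, 98.7, and 71.1 TPM. The groups overlapped, since both sides of mouse 1 were low, but the denervated side was higher in 3 of 3 mice, by 0.87, 1.23, and 0.58 on the log2 scale. At day 3 the sham samples had 26.3, 34.4, and 29.7 TPM and the denervated samples 259, 326, and 249.9 TPM. The log2 differences of day 3 were 3.28, 3.23, and 3.05, the narrowest spread among the 3 genes at that day (SD 0.12, against 0.87 for Ppp1r27 and 0.47 for Traf3ip3). At day 7 the sham samples had 54.1, 53.7, and 42.3 TPM and the denervated samples 129, 156, and 96.4 TPM. These groups did not overlap, and the mean was 50.02 ± 6.70 TPM in sham and 127 ± 30.0 TPM in denervated samples (SD, n = 3 each).

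Traf3ip3 was low on the sham side at each time and did not part from it at day 1. Its day 1 samples had 1.26, 2.29, and 3.29 TPM in sham and 1.84, 2.97, and 2.95 TPM in denervated samples, and mouse 3 was lower on the denervated side. At day 3 the sham samples had 2.01, 1.72, and 3.43 TPM and the denervated samples 16.5, 23.2, and 21.8 TPM. At day 7 the sham samples had 3.92, 2.04, and 1.57 TPM and the denervated samples 7.79, 6.51, and 5.97 TPM. The groups of days 3 and 7 did not overlap. The log2 differences within the mice were 0.41, 0.32, and -0.13 at day 1, 2.76, 3.42, and 2.51 at day 3, and 0.91, 1.47, and 1.65 at day 7.

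**Figure D2:**
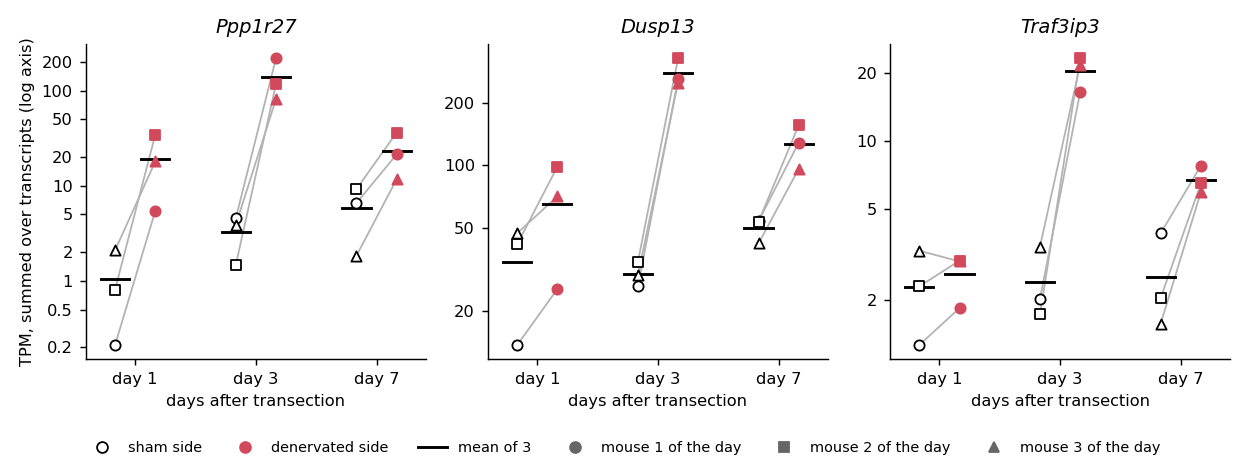
Level of each gene in TPM (log axis) on the sham side (open) and the denervated side (red) at days 1, 3, and 7, with a symbol for each of the 3 mice of a day, lines between the sides of a mouse, and black bars for means of 3. The denervated level was highest at day 3 in all 3 genes, and Ppp1r27 alone had groups that did not overlap at day 1.

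Ordered by mean level, the 3 sham groups came first for Ppp1r27 and Dusp13, then the denervated groups of day 1, day 7, and day 3. For both genes the ranges of all neighbors in that order met, apart from the last pair. The denervated range of Ppp1r27 was 11.7 to 36.4 TPM at day 7 and 81.6 to 219.5 TPM at day 3, and that of Dusp13 96.4 to 156 TPM and 249.9 to 326 TPM. For Traf3ip3 the 3 sham groups and the denervated group of day 1 lay between means of 2.28 and 2.59 TPM with ranges that met. The denervated groups of day 7 (6.76 ± 0.936 TPM) and day 3 (20.5 ± 3.53 TPM) stood above them and apart from each other. These orders are descriptions, because they include the values of day 3, which chose the genes. Since TPM is scaled for length, the denervated means of day 3 can be set side by side, 278 TPM for Dusp13, 139.5 TPM for Ppp1r27, and 20.5 TPM for Traf3ip3.

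The question at day 1 was whether the genes already differed between the sides. In a limma fit of the 6 samples on log2(TPM + 0.5), 0 of 14776 genes (0%) passed an adjusted p of 0.05, while 634 (4.29%) were under it before adjustment. None of the 3 genes passed. Ppp1r27 had a log2 fold change of 3.55 ± 0.75 (SE), rank 7 of 14776 genes counted from the highest, with an adjusted p of 0.802 in limma, or 0.283 in the limma fit that also held a term for each mouse. Of its sham samples only that of mouse 3 reached the minimum level of 1 TPM, so Ppp1r27 entered the test through its denervated samples. Its p and rank are therefore not free of its rise. Scaled to the skeletal muscle markers, its log2 fold change was 4.05 and passed (limma, adjusted p = 0.0036). This scaling moved the median log2 fold change of all genes from 0.01 to 0.20. Dusp13 had a log2 fold change of 0.89 ± 0.65 (SE; limma, adjusted p = 0.999) and Traf3ip3 one of 0.20 ± 0.33 (SE; limma, adjusted p = 0.999). In the fit with a term for each mouse these were 0.425 and 0.880 (limma, adjusted p).

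At day 7, limma called 153 of 15081 genes higher (1.01%) and 77 lower (0.511%) on the denervated side. Of the 3 genes, Dusp13 rose, by 1.32 ± 0.20 (SE) on the log2 scale (limma, adjusted p = 0.0299). Traf3ip3 had a log2 fold change of 1.34 ± 0.29 (SE; limma, adjusted p = 0.105), and Ppp1r27 one of 1.98 ± 0.60 (SE; limma, adjusted p = 0.243). Blocked on the mouse, 215 of 15081 genes were called higher (1.43%), and all 3 genes were among them, with limma adjusted p of 0.0108 for Ppp1r27, 0.0108 for Dusp13, and 0.0375 for Traf3ip3. Counted from the highest log2 fold change, Ppp1r27 had rank 66, Traf3ip3 rank 175, and Dusp13 rank 182 of 15081. The call of Dusp13 without the block was lost in the fit without mouse 1 (limma, adjusted p = 0.4003) and without mouse 2 (adjusted p = 0.281).

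**Figure D3:**
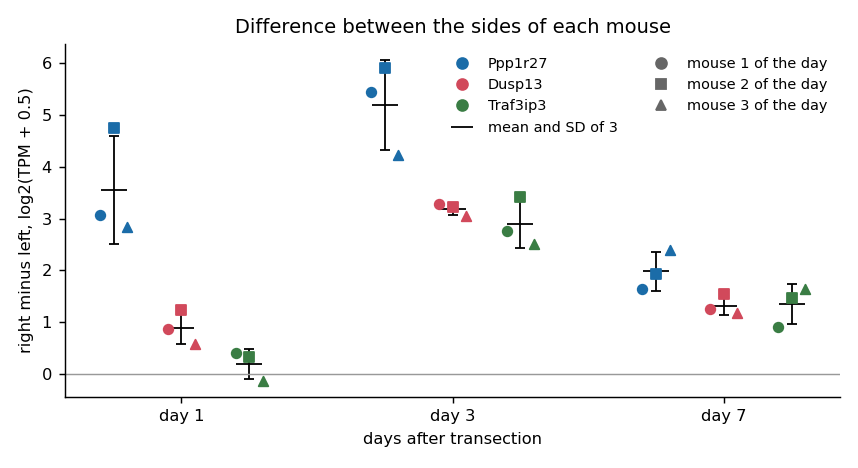
Right (denervated) minus left (sham) difference of each mouse in log2(TPM + 0.5) at days 1, 3, and 7 for the 3 genes, with the mean and SD of 3 mice as bars. At day 1 Ppp1r27 lay between 2.84 and 4.74, Dusp13 between 0.58 and 1.23, and Traf3ip3 around 0, and at day 7 the 9 values lay between 0.91 and 2.39.

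The 6 mice of days 1 and 7 were then pooled, and the sign of each mouse's difference was flipped in all possible ways. Ppp1r27 was higher in 6 of 6 mice, by a mean of 2.76 ± 1.11 (SD) on the log2 scale (exact two-sided sign-flip permutation test, p = 0.03125), and Dusp13 in 6 of 6 mice by 1.11 ± 0.33 (SD; exact test, p = 0.03125). For both genes this is the smallest p that 6 mice can give. Traf3ip3 was higher in 5 of 6 mice, by 0.77 ± 0.70 (SD; exact test, p = 0.0625). The 3 p-values were not adjusted for the number of genes tested, and the tests share their mice. The share of all genes that were higher in 6 of 6 mice is not given. Here and for the groups of transcripts below, these counts therefore do not show that the genes stand out.

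The change of the effect between days 1 and 7 was tested as an interaction in a fit of all 18 samples. Of 14757 genes, 24 (0.163%) differed, and none of the 3 genes was among them. Ppp1r27 had an interaction of -1.57 ± 1.00 (SE; limma, adjusted p = 0.803). That of Dusp13 was 0.43 ± 0.64 (SE; limma, adjusted p = 0.920) and that of Traf3ip3 1.144 ± 0.45 (SE; limma, adjusted p = 0.617). With 3 mice a day, these tests do not show that the effects of the 2 days were alike.

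The sham side itself was compared between days 1 and 7, where 144 of 14757 genes (0.976%) differed. Ppp1r27 had a log2 difference of 2.02 ± 0.71 (SE; limma, adjusted p = 0.154), from 1.04 to 5.88 TPM in the mean. Dusp13 had one of 0.71 ± 0.45 (SE; limma, adjusted p = 0.428) and Traf3ip3 one of 0.11 ± 0.32 (SE; limma, adjusted p = 0.900). The summed muscle markers moved in the same samples, from 3929 to 20180 TPM at day 1 to 21400 to 24910 TPM at day 7. Scaled to these markers, the log2 difference of Ppp1r27 was 1.30, that of Dusp13 turned to -0.38 and that of Traf3ip3 to -0.78, and none of these passed. This scaling changed results across the genes. With it 7949 of 14649 genes had a limma p under 0.05 without adjustment, against 2692 of 14757 without it. The turns are thus not particular to these genes.

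**Figure D4:**
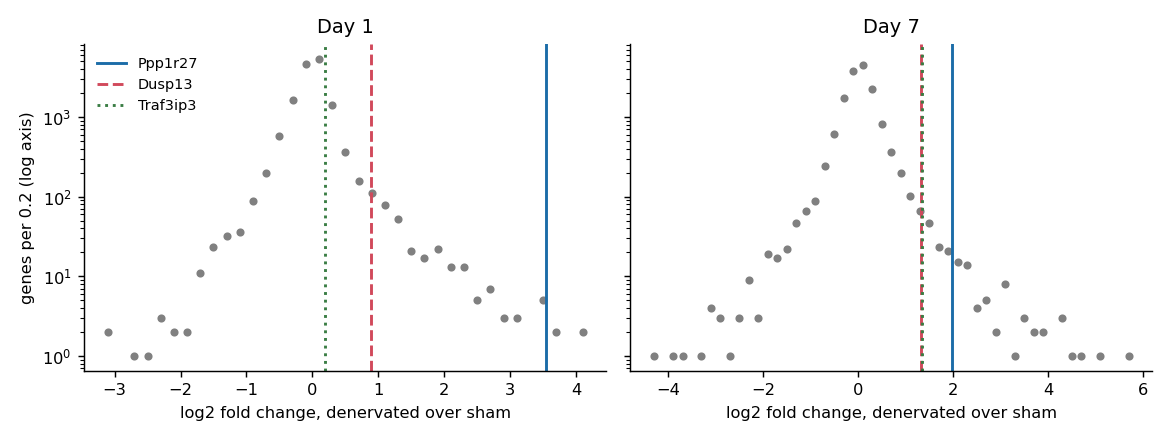
Number of genes (log axis, points for bins of 0.2) by log2 fold change of denervated over sham samples at day 1 (left) and day 7 (right), with lines at the 3 genes. Ppp1r27 lay at 3.55 at day 1, where 6 genes were higher, and at 1.98 at day 7, and Dusp13 and Traf3ip3 lay at 1.32 and 1.34 at day 7.

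The 14 transcripts of Dusp13 were not equally used. 11 of them reached 5 TPM in some sample, and 1 was at 0 in all 18. Dusp13-204, of the downstream reading frame, held the largest part, with 9.45, 13.7, and 21.1 TPM in sham and 13.9, 56.0, and 46.6 TPM in denervated samples of day 1. At day 3 it had 10.8, 16.7, and 14.6 TPM in sham and 128, 147, and 116 TPM in denervated samples. At day 7 it had 18.1, 27.4, and 22.6 TPM in sham and 42.5, 79.5, and 35.75 TPM in denervated samples. Dusp13-201, the transcript of the upstream reading frame, was lower in the denervated samples of day 3 and is given beside it. At day 1 it had 1.54, 5.26, and 8.72 TPM in sham and 3.31, 12.3, and 4.64 TPM in denervated samples, so that mouse 3 was lower on the denervated side. At day 3 it had 6.97, 5.38, and 3.86 TPM in sham and 40.45, 45.4, and 39.3 TPM in denervated samples. At day 7 it had 14.2, 10.8, and 9.61 TPM in sham and 31.4, 30.1, and 23.4 TPM in denervated samples. The denervated mean of day 7 was 67.9% of that of day 3 for Dusp13-201 and 40.2% for Dusp13-204, a difference that was not tested. The noncoding Dusp13-209 had 0.455, 1.96, and 4.19 TPM in sham and 0.760, 0.898, and 0.948 TPM in denervated samples of day 1, lower on the denervated side in 2 of 3 mice. It was at 0 or up to 2.02 TPM in the sham samples of days 3 and 7, and its denervated samples had 9.98, 38.25, and 24.4 TPM at day 3 and 16.05, 3.54, and 4.64 TPM at day 7.

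Summed by reading frame, a grouping made after the values were seen, the 6 transcripts whose coding part ends in the last exon (1 of which, Dusp13-211, begins at the upstream start codon) had 184, 229, and 171 TPM in the denervated samples of day 3 and 18.8, 25.5, and 23.1 TPM in sham. The 2 transcripts that code upstream had 41.3, 46.65, and 40.65 TPM against 6.97, 5.38, and 4.70 TPM. Both groups of transcripts were thus higher at day 3 in each mouse. In the mice of days 1 and 7, the downstream group was higher on the denervated side in 6 of 6 mice by a mean of 1.11 ± 0.31 (SD) on the log2 scale (exact sign-flip permutation test, p = 0.03125). The upstream group was higher in 5 of 6 mice by 0.85 ± 0.77 (SD; exact test, p = 0.0625), and mouse 3 of day 1 went the other way. For Traf3ip3, the transcripts with the internal end were higher in 6 of 6 mice by 0.90 ± 0.55 (SD; exact test, p = 0.03125) and the full-length ones in 4 of 6 mice by 0.78 ± 1.05 (SD; exact test, p = 0.2188).

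Dusp13-204 made up 32.7% to 68.6% of the gene's TPM over the 18 samples, with a median of 48.75%. Its share differed between the sides of the 6 mice of days 1 and 7 by 2.26 ± 17.04 percentage points (SD), higher in 2 of 6 mice (exact sign-flip permutation test, p = 0.75). The share of the upstream group was 7.95% to 27.15%, and it differed by -2.07 ± 4.85 points (SD, 2 of 6 mice higher; exact test, p = 0.344). A change of the shares with denervation was not detectable in 6 mice with this spread. By Kallisto's estimate, transcripts ending in the reading frame known from testis held at least 56.9% of the gene's TPM in each of the 18 samples. Dusp13-201 holds the same last exons and shares 852 bases with Dusp13-204, so this share was not measured directly. The 6 testis germ cell markers had a summed TPM between 0.0851 and 2.08 in the 18 samples, and none of them passed the minimum level.

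**Figure D5:**
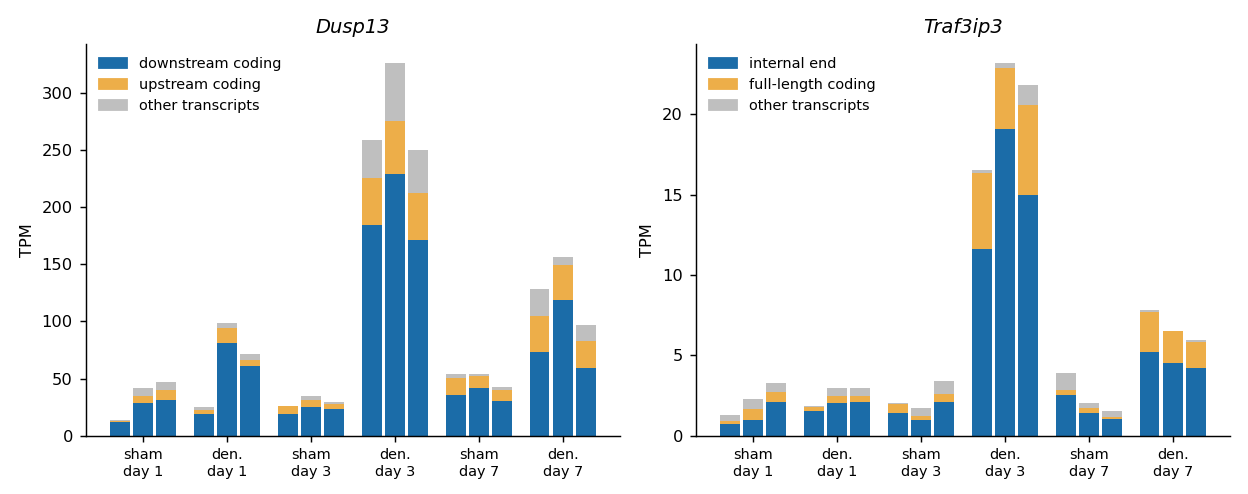
TPM of each sample (bars, 3 per group) divided among groups of transcripts for Dusp13 (left) and Traf3ip3 (right), with sham and denervated (den.) samples of days 1, 3, and 7. By Kallisto's estimate, the transcripts that code in the last exons were the largest part of Dusp13 in all 18 samples, and those with the internal end that of Traf3ip3.

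Of the 13 transcripts of Traf3ip3, 4 reached 1 TPM in some sample and 2 reached 5 TPM. Traf3ip3-201, the first-listed transcript, was at 0 in 9 of 18 samples and never above 0.868 TPM. Traf3ip3-204, with the internal end, had 1.43, 0.688, and 2.07 TPM in sham and 11.6, 17.2, and 14.55 TPM in denervated samples of day 3. At day 7 it had 2.35, 1.42, and 1.07 TPM in sham and 5.23, 4.54, and 4.11 TPM in denervated samples. At day 1 its sham samples had 0.7505, 0.982, and 2.07 TPM and its denervated samples 1.46, 2.06, and 2.12 TPM. The full-length Traf3ip3-212 was lower, and at day 1 it had 0, 0.657, and 0.655 TPM in sham and 0.221, 0.147, and 0.378 TPM in denervated samples, lower on the denervated side in 2 of 3 mice. It had 0.529, 0.226, and 0.543 TPM in sham and 4.68, 3.802, and 5.48 TPM in denervated samples of day 3, and 0.348, 0.312, and 0 TPM against 1.84, 1.11, and 1.29 TPM at day 7.

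Traf3ip3-204 held 40.0% to 79.3% of the gene's TPM (median 68.5%, n = 18). Its share was higher on the denervated side in 5 of the 6 mice of days 1 and 7, by 10.5 ± 10.7 percentage points (SD; exact sign-flip permutation test, p = 0.0625). The differences were 19.8, 26.5, and 8.90 points in the mice of day 1 and 7.26, -0.17, and 0.57 points in those of day 7. Summed as full-length forms, Traf3ip3-201 and Traf3ip3-212 held 8.88%, 15.3%, and 7.79% of the TPM in the sham samples of day 7 and 31.5%, 30.3%, and 26.9% in the denervated samples. At day 1 the values were 10.8%, 28.7%, and 19.9% against 13.5%, 14.8%, and 12.8%. Over the 6 mice the difference was 6.42 ± 14.9 points (SD, 4 of 6 mice higher; exact test, p = 0.3125). With a gene level of 1.26 to 3.92 TPM in sham, these shares rest on few reads, an estimated 3.95 to 15 for Traf3ip3-204.

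Of the 28 single transcripts of the 3 genes, 8 were abundant enough to be tested at day 1 and 10 at day 7, and 0 passed in limma (2 and 8 were under 0.05 without adjustment). At day 7 Traf3ip3-212 met the minimum level through its denervated samples alone, so its p is not free of its rise. The same limit holds for other transcripts, among them Dusp13-209 at day 7 (sham samples of 1.38, 0, and 0 TPM). It also holds for Ppp1r27-201 and Traf3ip3-204 at day 1. In each of these only the highest sham sample reached 1 TPM. Of 31981 transcripts tested at day 1, 0 (0%) passed in limma, and 1338 were under 0.05 without adjustment. On day 7, 85 of 33805 transcripts (0.251%) were higher, and 3040 were under 0.05 in either direction without adjustment. There Dusp13-201 had a log2 fold change of 1.26 ± 0.20 (SE; limma, adjusted p = 0.0906), and Traf3ip3-204 one of 1.32 ± 0.29 (SE; limma, adjusted p = 0.205). Dusp13-204 had one of 1.13 ± 0.32 (SE; limma, adjusted p = 0.369). Blocked on the mouse, 0 of all transcripts passed at day 7 (limma), and 3997 were under 0.05 without adjustment.

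The partners of the 3 genes were described from lists. Protein phosphatase 1 works as a catalytic subunit bound to one of many regulatory subunits. Of 39 genes for its subunits and inhibitors, 35 were tested at day 3, where 0 passed, and 34 at day 7, where 1 was lower. The middle of the list stood at a log2 fold change of -0.00 (day 3) and -0.05 (day 7), and that of all genes at -0.01 and 0.04 (medians). At day 3, limma called 151 of 14943 genes higher (1.01%) and 66 lower (0.442%). The 1 that fell was Ppp1r1a, an inhibitor of the phosphatase, from 44.1 to 15.55 TPM at day 7 by 1.48 on the log2 scale (limma, adjusted p = 0.0200). Of the catalytic subunit genes, Ppp1cb had 175 TPM in sham and 189.9 TPM in denervated samples of day 3 (log2 fold change 0.11, limma, adjusted p = 0.805). Ppp1r14b, another inhibitor, had 146 and 272 TPM (log2 fold change 0.91, limma, adjusted p = 0.068, or 0.0368 blocked on the mouse).

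Of 15 genes of dysferlin and membrane repair, 1 was lower at day 3 and 1 higher at day 7. Capn3, the muscle calpain, which associates with dysferlin, fell by 1.30 on the log2 scale at day 3 (limma, adjusted p = 0.0401), from 12.6 to 4.81 TPM. Cavin4, a protein of muscle caveolae, rose by 1.49 at day 7 (limma, adjusted p = 0.0107), from 33.3 to 94.8 TPM. Dysf itself, named after its values were seen, had 20.3 and 27.6 TPM at day 3 (log2 fold change 0.38, limma, adjusted p = 0.584) and 21.1 and 20.5 TPM at day 7 (-0.09, adjusted p = 0.917).

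Among 26 other dual specificity phosphatases, 23 were tested at each day, and 1 was higher at day 3 and at day 7. This was Dusp27, a member without catalytic activity that is found in muscle, at 6.38 and 20.6 TPM at day 3 (log2 fold change 1.598, limma, adjusted p = 0.0143) and 8.39 and 18.3 TPM at day 7 (1.11, adjusted p = 0.0436). Dusp14 and Dusp22, the most abundant members, had log2 fold changes of -0.55 (limma, adjusted p = 0.380) and 0.06 (adjusted p = 0.912) at day 3. A list of 18 MAP kinases and their kinases was set beside these phosphatases, and of its genes tested 0 of 17 passed at day 3 and 0 of 18 at day 7. The most abundant of these, Mapk13 and Map2k3, had log2 fold changes of -0.37 (limma, adjusted p = 0.285) and 0.01 (adjusted p = 0.985) at day 3.

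Of 21 genes of the TRAF pathway, through which receptors of the tumor necrosis factor family signal, 1 was higher at day 3 and 0 passed at day 7. This was Traf4, at 7.81 and 22.4 TPM (log2 fold change 1.47, limma, adjusted p = 0.0105) at day 3 and 6.26 and 8.26 TPM at day 7 (0.37, adjusted p = 0.381). Traf3, the partner that gave Traf3ip3 its name, had 5.54 and 5.83 TPM at day 3 (log2 fold change 0.07, limma, adjusted p = 0.8496) and was named after its values were seen. Traf7 and Traf3ip2, the most abundant members, had log2 fold changes of 0.06 and -0.01 at day 3 (limma, adjusted p = 0.906 and 0.978).

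In contrast to these lists, nearly all genes of a list of 15 known denervation genes rose. All 14 that could be tested rose at day 3, with a median log2 fold change of 3.73 (13 when blocked on the mouse, without Ncam1, limma, adjusted p = 0.0589), and 13 of 14 rose at day 7, with a median of 3.37. The one that did not pass at day 7 without the block was Musk, the kinase of the neuromuscular junction (log2 fold change 1.57, limma, adjusted p = 0.0571). The list is made of genes known to respond to denervation, and it was chosen with earlier results of these data known. Some of its genes met the minimum level at day 3 only through their denervated samples, so their tests are not free of their rise. Chrng and Musk were among these, with sham means of 0.35 and 0.40 TPM.

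Relative to day 3, the 3 genes stood lower at day 7 than most of that list. The denervated mean of day 7 was 16.6% of that of day 3 for Ppp1r27, 33.0% for Traf3ip3, and 45.7% for Dusp13. Over the 14 denervation genes it ranged from 32.2% to 211%, with a median of 66.6%. The lowest of them was Myod1, the gene of the myogenic factor MyoD, at 32.2%. Chrng, the fetal receptor subunit, stood at 81.6% and Myog at 55.1%. Because the 3 genes were picked at day 3, a lower value at another time is partly set by that choice, and no test was made.

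The 3 genes were alike over the 18 samples, as a description of points that share mice, days, and sides. The Pearson r of log2(TPM + 0.5) was 0.918 for Ppp1r27 with Dusp13, 0.918 for Dusp13 with Traf3ip3, and 0.859 for Ppp1r27 with Traf3ip3. Over the 15 samples other than the denervated samples of day 3 it was 0.838, 0.826, and 0.698. Among 14724 other genes, those most like Ppp1r27 were Pvr (r = 0.940), Myod1 (0.929), Gramd1b (0.927), Myog (0.924), and Dusp13. Those most like Dusp13 were Creld1 (0.965), Gramd1b (0.959), Lsm6 (0.950), Uqcc1 (0.948), and Castor2 (0.948). Those most like Traf3ip3 were Creld1 (0.956), Mknk2 (0.948), Mrps27 (0.942), Arhgdig (0.939), and Fam19a5 (0.936). The genes of the myogenic factors MyoD and myogenin were among the 5 of Ppp1r27 and not among those of Dusp13 or Traf3ip3. Their r with Dusp13 and Traf3ip3 is not given, so this does not set Ppp1r27 apart. These rankings include the denervated samples of day 3, which chose the 3 genes and favor genes that peak there. Creld1 had 23.5 and 75.7 TPM in sham and denervated samples of day 3, and Arhgdig 1.97 and 18.9 TPM.

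The neighbors of the 3 genes were read to see whether whole regions moved. Of the 3 nearest protein-coding genes on each side of Ppp1r27, 5 were tested and none passed at day 3 or 7. Mcrip1, only 252 bases beyond the end of Ppp1r27, had 89.8 and 87.2 TPM at day 3 (log2 fold change -0.04, limma, adjusted p = 0.892). Next to Dusp13, Dupd1, another dual specificity phosphatase of muscle, lay 18818 bases away. It had 3.53 and 22.4 TPM at day 3 (log2 fold change 2.78, limma, adjusted p = 0.0985) and 7.43 and 12.1 TPM at day 7 (0.64, adjusted p = 0.256). The other 5 neighbors of Dusp13 did not pass at day 3 or 7, nor did the 5 neighbors of Traf3ip3 that were tested.

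Samd8, a gene of sphingolipid metabolism on the plus strand, overlaps the first 651 bases of Dusp13 and was named after its values were seen. It rose at day 3 from 7.40 to 24.95 TPM (log2 fold change 1.68, limma, adjusted p = 0.0087) and at day 7 from 7.81 to 17.3 TPM (1.09, adjusted p = 0.0129). The library kit does not mark strand, so that reads in the overlap cannot be told apart. Of the Dusp13 transcripts, 1, Dusp13-205, reaches into it, and it was at most 5.09 TPM in any sample. A130010J15Rik, on the plus strand, overlaps 2380 bases at the far end of Traf3ip3, which 3 Traf3ip3 transcripts reach, Traf3ip3-212 among them. It had 4.32 and 5.12 TPM at day 3 (log2 fold change 0.21, limma, adjusted p = 0.628). Traf3ip3-204 does not reach the overlap.

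Markers of other cells were set beside these values. Traf3ip3 is known from lymphocytes, and the summed TPM of 12 T cell markers was 22.2 to 26.9 in sham and 14.6 to 26.8 in denervated samples of day 3, and 22.0 to 40.8 and 29.6 to 37.5 at day 7. None of the 9 T cell markers tested passed at day 3 or 7, and 0 of 3 B cell markers did. The muscle markers had a sum of 14540 to 16540 TPM in sham and 11920 to 16300 TPM in denervated samples of day 3, and of 21400 to 24910 and 20550 to 22870 TPM at day 7. At day 7, 1 of 12 muscle markers was lower (Ckm) and 1 higher (Neb). The summed neutrophil markers were 43.9 to 244 TPM in sham and 1356 to 2658 TPM in denervated samples of day 7. Most of this sum was S100a8, which keratinocytes also express, with means of 95.7 TPM in sham and 1621 TPM in denervated samples. Of the 5 tested, S100a8 was the 1 that passed, so the sum mostly follows this gene. The neutrophil sum was 33.9 to 349 and 371 to 1469 TPM at day 3, and none of these markers passed (S100a8 did when blocked on the mouse). At day 7 the macrophage sum was 148 to 430.5 TPM in sham and 285 to 638.5 TPM in denervated samples, and the Schwann cell sum 321.5 to 593 and 249.6 to 280.2 TPM. No marker of these lists was at 0 in all samples of a group, apart from testis germ cell genes. The part of these cells in the values of the 3 genes was not tested.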

How the data were processed

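RNA was sequenced from 18 whisker pad biopsies, a right and a left one from each of 9 mice. The authors prepared TruSeq RNA libraries, sequenced them on a NextSeq, and called bases with bcl2fastq 2.17.1.14. Duplicate reads were dropped with ParDRe, adapters were cut with Fastp, and kallisto 0.43.1 assigned reads to mouse cDNA (GRCm38). The authors then put the TPM on a common scale with sleuth, so the deposited signal sums to 833186 to 1143839 per sample. Day 7 columns were matched to samples by side and library number. Group and left-right pair do not depend on that match.

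Of 113194 transcripts, 98.46% matched GENCODE M21 by identifier, and values were summed for 35150 genes. The tests were planned for plain TPM and kept. limma 3.58.1 (R 4.3.3) was fitted to log2(TPM + 0.5) with an intensity trend for the variance. A gene was tested where 47% or more of the samples had 1 TPM or more. Each day was fitted alone, 6 samples with an injury term, and p-values were adjusted by Benjamini-Hochberg over all genes (threshold 0.05). Interactions and sham days came from 1 fit of 18 samples. A second fit blocked on the mouse, since both sides are from the same animal. Residuals of the 2 sides correlated by 0.131 to 0.511 in the 9 mice. Sign-flip tests were exact and two-sided. Scripts were tested on simulated data.

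The members and gene lists were chosen with earlier results of these data known. Named were the members, the 5 genes most alike, the 3 nearest protein-coding genes on each side, and from each list those that passed at day 3 or 7, joined by the 2 most abundant where fewer than 2 passed. The values of 1 listed gene are not reported here. Depth came from low values near whole reads (76.2% to 82.7%, against 20% for an even spread) and covers counting error only. Other steps used Python 3.11.15, matplotlib 3.10.9, scipy 1.17.1, pandas 2.3.3, and numpy 2.4.6. As alternatives the pseudocount was 0.1 or 1, the minimum was any TPM over 0 or 5 TPM, values were rescaled by median of ratios, equal sums, or muscle markers, the trend was dropped, all 18 samples were fitted at once, and each mouse was left out.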

Additional observations from a re-analysis of the deposited data

How the results depend on the processing

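The direction of the 3 genes at days 1 and 7 was kept under every alternative run. At day 7 the block on the mouse brought Ppp1r27 (log2 fold change 1.98, limma, adjusted p = 0.0108) and Traf3ip3 (1.34, adjusted p = 0.0375) past the threshold and changed no other call of the 3 genes. Dusp13 lost its day 7 call with equal sums (1.33, adjusted p = 0.0618) and in the fit of all 18 samples (1.32, adjusted p = 0.2085), and leaving out 1 mouse gave 1.21 to 1.39. Over its alternatives the adjusted p of Dusp13 at day 7 was 0.0108 to 0.4003. At day 1 Ppp1r27 passed with muscle marker scaling alone (4.05), a scaling that moved the median of all genes to 0.20 at day 1 and 0.11 at day 3. The causes were not tested.

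With 1 mouse left out, the mean within-mouse difference was 2.37, 2.70, 2.75, 2.84, 2.93, or 2.99 for Ppp1r27 and 1.02, 1.08, 1.08, 1.09, 1.15, or 1.21 for Dusp13, and it was 0.59 to 0.95 for Traf3ip3, and 5 mice cannot give an exact p under 0.0625. With the mice of day 3, which chose the genes, it was 3.57 for Ppp1r27, 1.80 for Dusp13, and 1.48 for Traf3ip3. Chosen after seeing the data, the upstream transcripts of Dusp13 alone gave 0.85 (exact p = 0.0625) and those of Traf3ip3 with the internal end alone 0.90 (exact p = 0.03125), against 0.78 for its full-length ones (exact p = 0.2188). The share of Dusp13-204 turned to -2.09 and -1.46 percentage points without mouse 2 or mouse 3 of day 1. The sham difference of days 7 and 1 was 1.30 for Ppp1r27 and turned to -0.38 for Dusp13 with muscle marker scaling, which changed results across the genes. For Traf3ip3 it turned to -0.029 with equal sums, -0.78 with muscle marker scaling, -0.19 without mouse 1 of day 1, and -0.21 without mouse 1 of day 7. At a minimum of 5 TPM, Traf3ip3 was not tested at day 1, in the interaction, or between sham days.

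Counts of calls over all genes moved more. At day 1, where 0 passed, 1 passed with any TPM over 0, 2 with equal sums, 24 with muscle marker scaling, 6 without the trend, 29 in the fit of 18 samples, and 4 without mouse 1. Leaving out 1 mouse took the 217 calls of day 3 to between 0 and 133 and the 230 of day 7 to between 1 and 127. The 24 interactions became 15 with equal sums, 1 with muscle marker scaling, and 0 to 82 with 1 mouse left out. The 144 sham calls (114 higher at day 7, 30 lower) became 76 with any TPM over 0, 4 with muscle marker scaling, and 0 to 352 with 1 mouse left out, and equal sums turned their split to 42 higher and 67 lower. The 0 transcripts of day 1 became 13 in the fit of 18 samples, and the 130 of day 7 became 0 with the block and 0 without any 1 mouse.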
